A study of Mus musculus with 11 samples.

Results

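The interaction of genotype and denervation is the denervation change of a gene in muscle of the mutant genotype minus its denervation change in control muscle, on a log2 scale. It was computed from all 11 arrays of the series. Control muscle gave 3 arrays with its nerve intact and 3 without, and mutant muscle gave 2 and 3. All 45101 probe sets except 64 array controls were eligible, and the 26170 that passed a filter on dim signals were tested. They stand for 12214 genes, each read on its brightest probe set. A negative interaction means that the mutant ended lower than the control change predicts from its innervated level, and a positive one that it ended higher.

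The tissue was tibialis anterior, a fast muscle of the mouse lower leg, innervated or denervated for 3 days by the sample titles. Control animals were runx1f/-, with a floxed allele over a null allele of Runx1, so the control groups carry a null allele too. Mutant animals were runx1f/-; MCK::cre, where Cre recombinase is expressed from the promoter of muscle creatine kinase, a gene of muscle fibres and not of the other cells of the tissue. Only the mutant carried MCK::cre, so Cre itself and the targeting of Runx1 cannot be told apart. For denervated control 3 the note on treatment has 5 days in place of 3. Ages are not given in the sources used here, and the labels leave unsaid whether replicates come from different animals. A p-value here therefore measures only how far these samples spread, which may be technical. The fibre genes Ckm, Acta1, Myh4, Mylpf, Tnnt3 and Des were bright in all 4 groups, with interactions from -0.23 to 0.06. Array medians ranged from 442.5 to 604.6 in signal, and precision is limited by how many arrays there are. In such bulk tissue fewer cells of a type and less RNA per cell cannot be told apart.

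RUNX1 is a DNA-binding factor that pairs with CBFB and reads short TGTGGT or TGCGGT sites in regulatory DNA. Muscle holds little of it while the nerve is active, and its gene is among those switched on when a fibre loses its nerve. Denervated fibres also bring back genes of developing muscle, such as the fetal subunit of the acetylcholine receptor, lose contractile protein and use less fat as fuel.

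Runx1 itself showed no detected interaction. Its brightest probe set, 1422864_at, read 505, 519 and 179 in innervated control and 23499, 25898 and 24353 in denervated control. In the mutant it read 288 and 395 in innervated and 20403, 20449 and 23185 in denervated muscle. Every denervated array was far above every innervated one in both genotypes, and the interaction was -0.11 ± 0.46 (SE; limma adjusted p = 0.98). The 5 other Runx1 probe sets gave -0.33, -0.38, -1.43, -0.29 and 0.12, none past the threshold. The probe set at -1.43 rose by 1.29 in control (limma adjusted p = 0.00177), while its mutant change of -0.14 did not pass (0.759). The sources used here do not place the floxed segment against these probe sets, so their signal does not check the deletion. Cbfb, the partner subunit, had an interaction of 0.05 ± 0.23 (SE; limma adjusted p = 0.98).

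Of the 26170 probe sets, 65 passed a limma adjusted p of 0.05, which is 0.248% of those tested. Of these, 43 (0.164% of those tested) had a negative and 22 (0.0841%) a positive interaction. An unadjusted p under 0.05 was reached by 2017. Read by gene, 32 of 12214 passed (0.262%), 17 negative (0.139%) and 15 positive (0.123%). The size of a called interaction had a median of 2.09 and ran from 1.1 to 4.89, while the median interaction of all tested probe sets was -0.04 and the median standard error 0.34. The split by sign depended on how arrays were scaled. The deposited values, each array at the same trimmed mean, gave 33.8% positive. Scaling to array medians gave 28 positive and 28 negative (50%), with the median of all probe sets moved to 0.19. Centring on the bacterial spike-in probe sets gave 4 positive and 71 negative (5.33% positive), with that median at -0.37.

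Single arrays moved the number of calls. It was 108 without innervated control 2, 91 without denervated control 3, 53 without innervated control 3 and 46 without denervated mutant 1. It was 36 without innervated control 1, 36 without innervated mutant 1, 35 without denervated control 1 and 33 without denervated mutant 3. The lowest counts were 25 without denervated control 2, 25 without denervated mutant 2 and 16 without innervated mutant 2, where the remaining innervated mutant array is assumed to vary like the other groups.

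**Figure D1:**
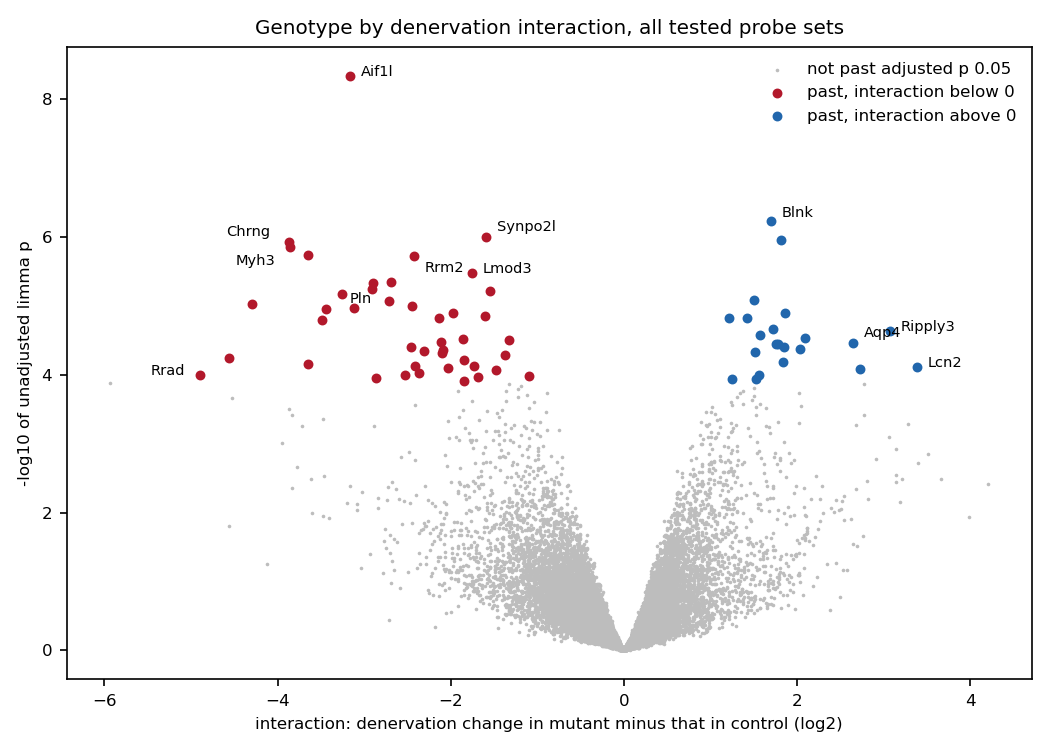
Interaction of each of the 26170 tested probe sets (x axis, log2, mutant change minus control change) against -log10 of its unadjusted limma p (y axis). The 65 probe sets past an adjusted p of 0.05 are coloured by sign, 43 on the left and 22 on the right.

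In most called probe sets the genotypes differed more in denervated than in innervated muscle. It was so in 62 of the 65 probe sets, and the exceptions were those of Ptprc, Ccl9 and Itgb2. The share of all tested probe sets with this shape was not counted. The denervated arrays of the genotypes did not overlap in 63 of the 65, a share to be read beside 20.2% of all tested probe sets. The innervated arrays did not overlap in 19 of the 65, beside 15.6% of all. No probe set differed between genotypes in innervated muscle by limma, against 478 in denervated muscle (1.83%). Denervation changed 29.3% of probe sets in control and 26.3% in mutant by the same rule. These comparisons share arrays with the interaction and are parts of it, so they describe its shape and are no second support for it.

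**Figure D2:**
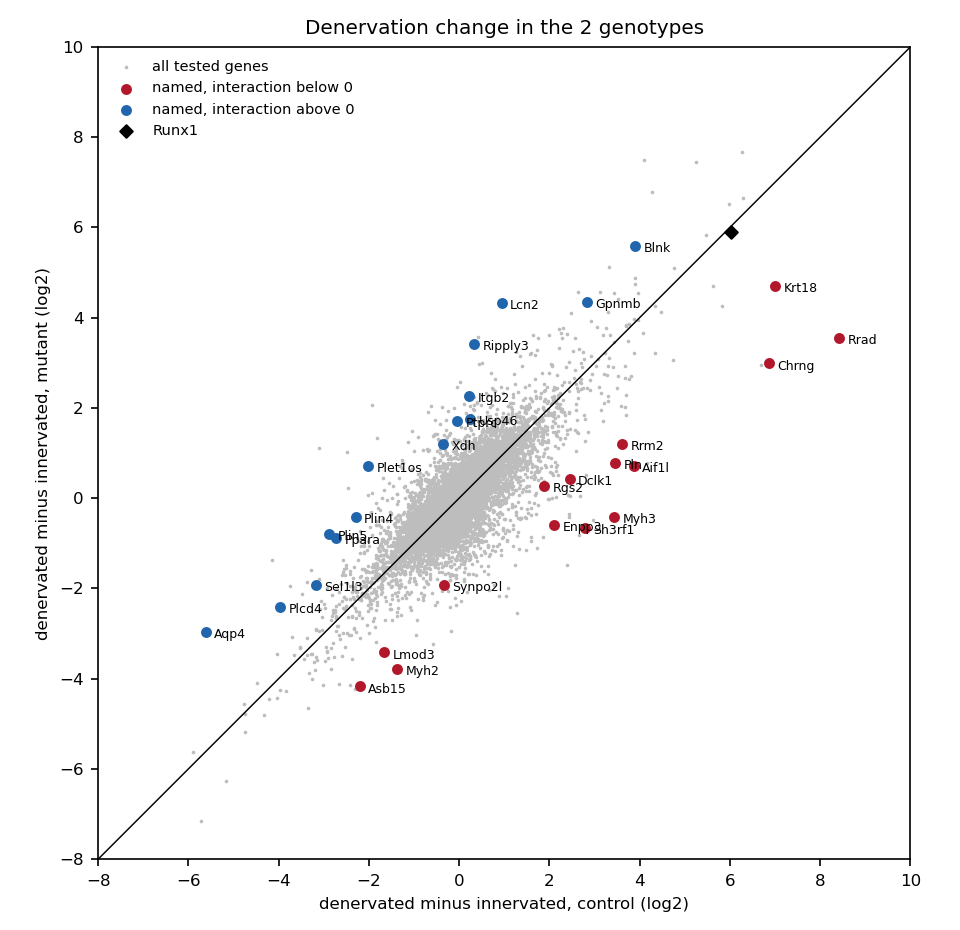
Denervation change in control (x axis, log2) and in mutant muscle (y axis, log2) for all tested genes in grey and the named genes past the threshold in colour, with the line of equal change and Runx1 as a diamond close to it. Points below the line have a negative interaction, such as Chrng at 6.86 and 2.99, and points above it a positive one, such as Blnk at 3.90 and 5.59.

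Promoter sequence was set beside the calls because RUNX1 and the E-box factors of muscle, such as myogenin, read short motifs there. The windows are RefSeq's, GRCm38.p6, from 250 bases before to 50 after a gene's start, and 24 of the 32 called genes had at least 1. Either RUNX motif, TGTGGT or TGCGGT, was searched on both strands and occurred in 6 of the 24 (25%), beside 2391 of 9847 tested genes with a window (24.3%). By sign it was 5 of 14 negative and 1 of 10 positive genes. The E-box CAGCTG, which reads the same on both strands, occurred in 9 of 24 (37.5%), beside 18.4% of all, in 6 of 14 negative and 3 of 10 positive genes. None of the motifs contains another. The windows of Myh3, Chrng and Dclk1, with negative interactions, and of Gpnmb, with a positive one, are shown as examples of such a motif in genes that passed. Each gives the 250 bases before the start, in the direction of the gene, with the motif in capitals (ACCACA is TGTGGT on the other strand).
Myh3: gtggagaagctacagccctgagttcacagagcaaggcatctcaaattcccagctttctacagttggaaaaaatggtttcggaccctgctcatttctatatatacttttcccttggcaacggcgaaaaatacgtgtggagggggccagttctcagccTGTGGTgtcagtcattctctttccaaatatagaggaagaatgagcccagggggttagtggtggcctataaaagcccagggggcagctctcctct
Chrng: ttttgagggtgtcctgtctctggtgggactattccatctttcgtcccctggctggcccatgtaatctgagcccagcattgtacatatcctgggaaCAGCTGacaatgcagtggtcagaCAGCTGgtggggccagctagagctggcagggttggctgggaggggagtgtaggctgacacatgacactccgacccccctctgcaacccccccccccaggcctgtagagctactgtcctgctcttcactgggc
Dclk1: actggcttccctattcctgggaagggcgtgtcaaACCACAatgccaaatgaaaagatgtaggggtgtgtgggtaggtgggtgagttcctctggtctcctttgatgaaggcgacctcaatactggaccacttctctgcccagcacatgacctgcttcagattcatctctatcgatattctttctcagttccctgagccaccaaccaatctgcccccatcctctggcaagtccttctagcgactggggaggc
Gpnmb: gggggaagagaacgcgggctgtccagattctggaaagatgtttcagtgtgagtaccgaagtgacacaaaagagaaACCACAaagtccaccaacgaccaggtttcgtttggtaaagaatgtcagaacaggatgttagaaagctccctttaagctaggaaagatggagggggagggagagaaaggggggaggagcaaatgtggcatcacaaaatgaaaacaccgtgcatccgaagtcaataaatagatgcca
They lie at chr11:67078050-67078299 for Myh3, chr1:87205561-87205810 for Chrng, chr3:55242114-55242363 for Dclk1 and chr6:49036268-49036517 for Gpnmb, all on the plus strand. The RUNX motif starts 94 bases before the Myh3 start, 216 before the printed start of Dclk1 and 175 before that of Gpnmb. Another Dclk1 window, with chr3:55461478-55461727 before its start, holds no motif in those 250 bases. Among the other called genes, only Cd82 holds a RUNX motif, and only Synpo2l and Usp46 an E-box, before at least 1 start. The gene counts above cover the whole window. In the other called genes counted there, the motif does not lie wholly before a start. The 2 E-boxes of Chrng start 155 and 132 bases before its start, and no RUNX motif lies in its 250 bases shown. A match is a run of letters and not a site shown to be bound, and the interaction of Myh3, at -3.86, and that of Gpnmb, at 1.52, have opposite signs with the same motif.

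On their brightest probe sets Chrng, Rrad and Pln rose with denervation in both genotypes, but less in the mutant. Chrng, the fetal gamma subunit of the muscle acetylcholine receptor, read 73, 74 and 71 in innervated control and 10267, 9627 and 10959 in denervated control on probe set 1449532_at. In the mutant it read 89 and 36 before and 687, 546 and 490 after denervation, so the denervated groups lay far apart and the innervated ones overlapped. It rose by 6.86 in control and by 2.99 in mutant, an interaction of -3.87 ± 0.46 (SE; limma adjusted p = 0.00603). A second probe set of Chrng gave -5.93 with an adjusted p of 0.0517. Its mutant change there, 0.67, did not pass (limma adjusted p = 0.585). Rrad, a small GTPase that restrains voltage-gated calcium channels, read 236, 24 and 69 in innervated and 27446, 44256 and 29089 in denervated control. Its mutant arrays read 66 and 201 in innervated and 926, 2963 and 1332 in denervated muscle. The denervated groups again did not overlap, and the interaction was -4.89 ± 0.89 (SE; limma adjusted p = 0.0452). Innervated means of Chrng and Rrad lie within the range of the bacterial Trp control probe sets (13.8 to 440), taken here as background, so their fold changes have an uncertain base while the gap between denervated groups does not rest on it.

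Pln encodes phospholamban, an inhibitor of the calcium pump of the sarcoplasmic reticulum. It read 1058, 888 and 830 in innervated and 7680, 11373 and 12592 in denervated control, against 1037 and 1098 and then 1265, 2120 and 2314 in mutant. The mutant's rise of 0.78 stood beside one of 3.46 in control, an interaction of -2.69 ± 0.36 (SE; limma adjusted p = 0.0112), and all 3 kept Pln probe sets were called. On the other kept Pln probe sets the mutant change was -0.06 and 0.03, and neither passed (limma adjusted p = 0.894 and 0.953). Chrng was the 1 called gene of 17 tested receptor and synapse genes, whose median interaction was -0.02. Chrnd, the delta subunit, stood at -1.56 (limma adjusted p = 0.391) and Chrna9 at 2.51 (0.371). Among 25 genes of excitation-contraction coupling, Pln and Rrad were called, 18 were negative and the median was -0.11, beside 0.01 for all genes. Under median scaling that median was 0.12. The Chrng call held when any single array was left out. The Pln call ended without innervated mutant 2 (adjusted p = 0.0545), and the Rrad call ended in 9 of 11 such omissions, with an adjusted p of up to 0.223.

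**Figure D3:**
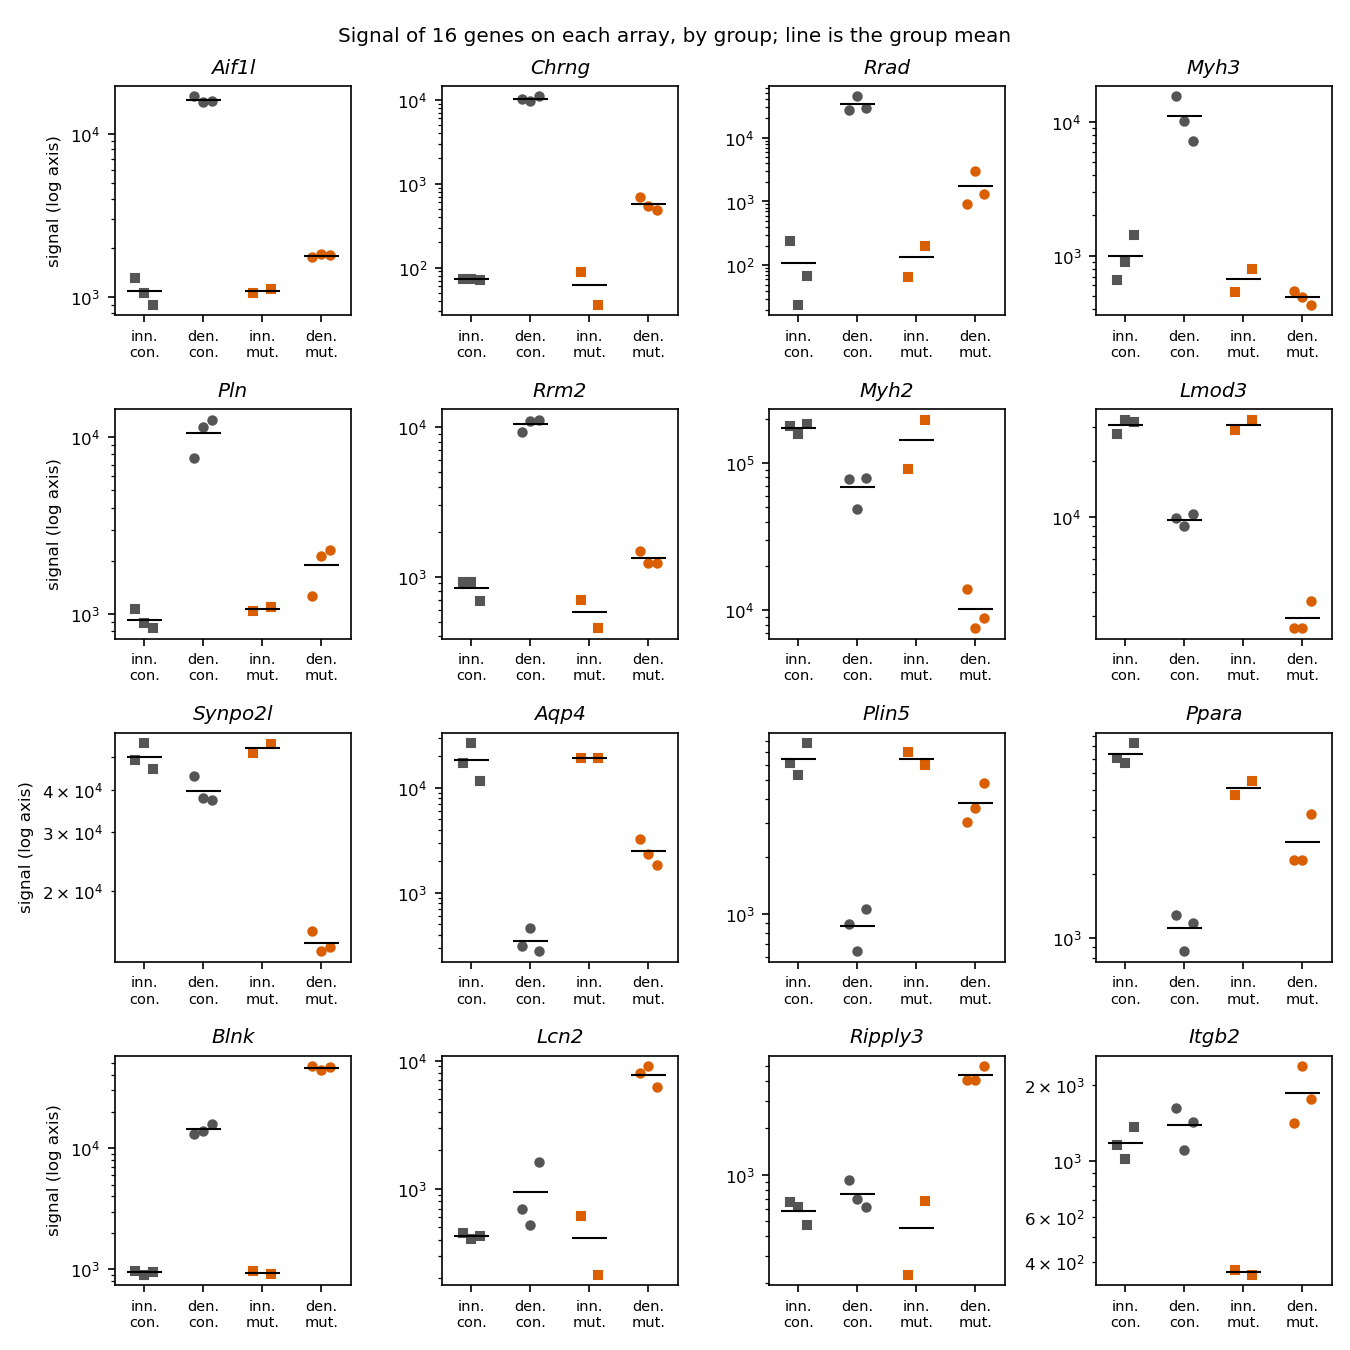
Signal of named genes on each array (log axis, intensity units), with control points (3 innervated, 3 denervated) and mutant points (2 innervated, 3 denervated) per gene and a bar at each group's mean. Chrng, Aif1l and Myh3 are highest in denervated control, while Blnk is higher in denervated mutant than in denervated control.

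Of the sarcomere genes tested, Myh3, Myh2, Lmod3 and Synpo2l were called, all with negative interactions. Myh3, the embryonic myosin heavy chain, whose promoter window with a TGTGGT is printed above, read 658, 895 and 1438 in innervated and 15508, 10189 and 7251 in denervated control on probe set 1427115_at. In the mutant it read 535 and 800 before and 545, 491 and 430 after denervation. Only the denervated control arrays were high: the control change was 3.44, the mutant value was -0.42 (limma adjusted p = 0.399), and the interaction was -3.86 ± 0.46 (SE; limma adjusted p = 0.00603). It was the 1 called gene of 10 tested developmental and cardiac sarcomere genes. All 10 had a negative value, from -3.86 to -0.17, beside 5928 of 12214 genes tested. The median was -0.83, from -1.17 to -0.60 under the other scalings, -1.31 without innervated control 3 and -0.66 without innervated control 2. Xirp1, an actin-binding repeat protein, had -1.59 without passing (limma adjusted p = 0.194).

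Myh2, the fast type 2A myosin heavy chain and the neighbour of Myh3 in gene order on chromosome 11, fell in both genotypes. It read 177921, 158294 and 184561 in innervated and 77796, 48761 and 79595 in denervated control, against 91809 and 197374 and then 13960, 7565 and 8847 in mutant. The mutant fell by 3.78 and the control by 1.37, with no overlap of the denervated groups and a wide gap between the innervated mutant arrays. The interaction was -2.41 ± 0.43 (SE; limma adjusted p = 0.0391). Of 16 fast-fibre genes it alone was called. The other 15 values were negative too, with a list median of -0.13, which turned to 0.11 under median scaling.

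Lmod3, a leiomodin that starts actin filaments in the thin filament, fell by 1.66 in control and by 3.42 in mutant. It read 27608, 32906 and 32220 in innervated and 9885, 8968 and 10373 in denervated control, and 29123 and 32976 and then 2602, 2586 and 3587 in mutant. Innervated arrays overlapped and denervated ones did not, and the interaction was -1.75 ± 0.23 (SE; limma adjusted p = 0.00972). Synpo2l, a Z-disc protein of the synaptopodin family, read 49134, 55205 and 46194 in innervated and 44047, 37826 and 37290 in denervated control. Its mutant arrays read 51559 and 54825 before and 15192, 13209 and 13566 after. The control value of -0.34 did not pass (limma adjusted p = 0.0556) while the mutant fell by 1.93, an interaction of -1.59 ± 0.18 (SE; limma adjusted p = 0.00603). Asb15, an ankyrin-repeat subunit of ubiquitin ligases in muscle, fell by 2.20 in control and 4.17 in mutant, to 4823, 3978 and 5512 and to 1235, 855 and 891. Its interaction was -1.97 ± 0.29 (SE; limma adjusted p = 0.0149).

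Lmod3 was the called gene among 34 genes of the Z-disc, the M-line and the cytoskeleton, and the list median was -0.18, or 0.05 under median scaling. Myot, a Z-disc protein that crosslinks actin, had -0.75 (limma adjusted p = 0.115). The 12 slow-fibre genes had 0 calls and a median of -0.23, with Tnni1 at -1.81 (limma adjusted p = 0.274). The Myh3 and Synpo2l calls held in all 11 single-array omissions. With the mean of a gene's kept probe sets, however, Synpo2l stood at -1.14 (limma adjusted p = 0.17) and Asb15 at -2.29 (0.0586). Without innervated mutant 2 the adjusted p of Lmod3 was 0.0536 and that of Myh2 0.153. The Myh2 call ended in 7 of 11 omissions. That of Asb15 ended without innervated mutant 1, innervated mutant 2 or denervated mutant 2, with an adjusted p of up to 0.0673.

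Aif1l, Krt18, Rrm2, Sh3rf1, Enpp3, Rgs2 and Dclk1 rose with denervation in control, with negative interactions. Aif1l, an actin-binding relative of allograft inflammatory factor 1, had the smallest adjusted p of all tested probe sets. It read 1305, 1064 and 900 in innervated and 16854, 15516 and 15736 in denervated control on probe set 1424263_at. In the mutant it read 1060 and 1125 and then 1756, 1829 and 1812. It rose by 3.87 in control and by 0.71 in mutant, an interaction of -3.16 ± 0.23 (SE; limma adjusted p = 0.000118), and all 3 kept probe sets of the gene were called. On the other kept Aif1l probe sets the mutant change was -1.02 and 0.34, and neither passed (limma adjusted p = 0.0714 and 0.485). Krt18, an intermediate filament keratin of simple epithelia, read 557, 388 and 508 and then 73720, 72418 and 49029 in control, against 662 and 310 and then 10392, 13750 and 12930 in mutant. It rose in both genotypes, by 7.01 and 4.71, and its interaction was -2.31 ± 0.38 (SE; limma adjusted p = 0.0276). Krt8, the partner with which it builds filaments and its neighbour on chromosome 15, missed the threshold on its brightest probe set (-3.72, limma adjusted p = 0.11) and passed on 2 others (-3.65 and -2.86). The innervated means of these Krt8 probe sets lie within the Trp control range, so the sizes are uncertain. The 8 keratin and intermediate filament genes had a median of -0.51.

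Rrm2, the subunit of ribonucleotide reductase that limits the supply of DNA precursors, read 916, 922 and 681 in innervated and 9212, 10944 and 11198 in denervated control. The mutant arrays read 701 and 452 and then 1488, 1240 and 1236. Its rise was 3.62 in control and 1.20 in mutant, an interaction of -2.42 ± 0.30 (SE; limma adjusted p = 0.00605), with all 3 kept probe sets called. It was the 1 called gene of 29 cell cycle genes, whose median was 0.15. Mki67, a marker of dividing cells, had 1.99 in the other direction without passing (limma adjusted p = 0.277). Its genotype difference was 0.13 in denervated and -1.86 in innervated muscle. The innervated mutant mean of Mki67 lies within the range of the bacterial Trp control probe sets, so the size of its value is uncertain.

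Sh3rf1, a scaffold and ubiquitin ligase of JNK signalling, read 576, 418 and 549 and then 3240, 5520 and 2631 in control, against 990 and 730 and then 574, 808 and 326 in mutant. It rose by 2.79 in control, the mutant value of -0.66 did not pass, and the interaction was -3.44 ± 0.50 (SE; limma adjusted p = 0.0148). Enpp3, an ectonucleotidase that splits extracellular nucleotides, read 590, 1147 and 1064 and then 3212, 4223 and 4450 in control. Its mutant arrays read 839 and 1015 and then 498, 717 and 617, and the interaction was -2.71 ± 0.38 (SE; limma adjusted p = 0.0141). Rgs2, which shortens G-protein signals, read 1645, 1930 and 1471 and then 6009, 5735 and 6904 in control, while all 5 mutant arrays lay between 1489 and 2054. Dclk1, a kinase that binds microtubules, likewise rose in control by 2.45, with a mutant value of 0.42. On the brightest probe sets of these 4 genes the mutant change did not pass the threshold. On another called Enpp3 probe set, 1452384_at, the mutant fell by 0.93 (limma adjusted p = 0.0195). Interactions were -1.60 ± 0.24 (SE) for Rgs2 and -2.03 ± 0.36 (SE) for Dclk1, with limma adjusted p of 0.0153 and 0.0393. A dimmer called probe set of Dclk1 gave -4.56 (limma adjusted p = 0.0327). There the genotype difference in innervated muscle was 2.26 (limma adjusted p = 0.952). Its innervated control and denervated mutant means lie within the Trp control range, so the size of that interaction is uncertain.

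Both remaining negative genes fell outside the naming rule and were chosen after their values were seen. Cd82, a tetraspanin of the cell surface, rose by 3.58 in control and 2.04 in mutant (interaction -1.54 ± 0.21 SE, limma adjusted p = 0.0122). Dusp1, a phosphatase that switches off MAP kinases, fell by 0.91 and 2.24 (interaction -1.32 ± 0.21 SE, limma adjusted p = 0.025). The Aif1l and Rrm2 calls held in every single-array omission. Enpp3, Sh3rf1 and Rgs2 each passed in 9 of 11, Krt18 in 4 and Dclk1 in 2 (which also missed with the mean of its probe sets, adjusted p = 0.0623), with adjusted p of up to 0.0742, 0.0673, 0.0673, 0.099 and 0.148. Enpp3 missed without denervated control 2 or innervated mutant 2, Sh3rf1 without either innervated mutant array, and Rgs2 without innervated mutant 1 or denervated mutant 2.

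Aqp4, Plin5, Plin4 and Ppara, with positive interactions, fell with denervation in control. Aqp4, the water channel of fast fibres, read 17249, 26732 and 11690 in innervated and 309, 460 and 277 in denervated control. The mutant read 19084 and 18999 and then 3238, 2334 and 1847, well above the denervated control. It fell by 5.62 in control and by 2.97 in mutant, an interaction of 2.65 ± 0.43 (SE; limma adjusted p = 0.0257). Its denervated control mean lies within the Trp control range taken as background, so the fall in control and the interaction have an uncertain size. With the mean of its kept probe sets it stood at 2.10 (limma adjusted p = 0.232). Plin5, a perilipin that ties lipid droplets to mitochondria, read 6154, 5331 and 7809 and then 889, 642 and 1070 in control, against 6964 and 5992 and then 3022, 3589 and 4816 in mutant. Its falls of 2.88 and 0.79 gave 2.09 ± 0.33 (SE; limma adjusted p = 0.0245). Plin4, another perilipin and its neighbour on chromosome 17, read 38665, 43653 and 37000 and then 8790, 6449 and 9448 in control. In mutant it read 34971 and 25654 and then 23103, 18334 and 26278, so the mutant groups overlapped while the control groups lay apart. The interaction was 1.86 ± 0.27 (SE; limma adjusted p = 0.0149).

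Ppara encodes the nuclear receptor that drives genes of fatty acid oxidation. It read 7062, 6661 and 8315 and then 1279, 862 and 1176 in control, against 4696 and 5524 and then 2336, 2337 and 3825 in mutant. The falls were 2.73 and 0.88 and the interaction 1.84 ± 0.32 (SE; limma adjusted p = 0.036). Of the 15 genes in its own list of PGC-1, PPAR and ERR regulators it alone was called, with 8 negative and 7 positive values and a median of -0.04. The 18 ion channels and pumps, with Aqp4 as the called gene, had 13 positive values and a median of 0.23, or -0.10 under spike-in centring. Of 26 genes of fatty acid oxidation, Plin5 was called, 23 were positive and 3 negative, and the median was 0.28 beside 0.01 for all genes. Under spike-in centring that median was -0.05 and that of all probe sets -0.37. The 48 respiratory chain and citrate cycle genes had 0 calls and a median of -0.01, with values from -0.35 to 0.40. Perm1, a regulator of muscle mitochondria, had -1.44 without passing (limma adjusted p = 0.18). The denervated mutant mean of Perm1 lies within the Trp control range, so the size of its value is uncertain.

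Plcd4, a phospholipase C, and Sel1l3 fell in both genotypes and less in mutant, by 3.96 and 2.41 and by 3.18 and 1.93. Their interactions were 1.56 ± 0.28 (SE) and 1.25 ± 0.23 (SE), with limma adjusted p of 0.0452 and 0.0471. Xdh, which makes uric acid from purines, read 10922, 9812 and 10193 and then 7938, 7371 and 8921 in control, and 9998 and 6247 and then 17100, 18170 and 19847 in mutant. Its mutant rise of 1.21 stood beside a control value of -0.35 that did not pass, an interaction of 1.57 ± 0.25 (SE; limma adjusted p = 0.0233). Plet1os, annotated as an antisense gene of Plet1, fell by 2.01 in control with a mutant value of 0.72 that did not pass. Its interaction was 2.73 ± 0.48 (SE; limma adjusted p = 0.0393), and Plet1 itself had 3.40 (0.195). Both innervated means of Plet1 lie within the Trp control range, so the size of its value is uncertain.

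The scaling bore on several of these calls. Spike-in centring ended the calls of Plin5 (1.76, adjusted p = 0.0706), Plin4 (1.53, 0.0582) and Ppara (1.51, 0.0975), and kept that of Aqp4 (2.31, 0.0272). It also ended those of Plet1os (2.39, 0.0582), Xdh (1.23, 0.187), Plcd4 (1.22, 0.293) and Sel1l3 (0.92, 0.347). Plin4 passed in 10 of 11 single-array omissions and missed without innervated mutant 2 (adjusted p = 0.087). Aqp4 and Xdh passed in 5, Plin5 in 4, Ppara and Plet1os in 3, and Plcd4 and Sel1l3 in 2.

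Blnk and Gpnmb rose in both genotypes and further in mutant. Blnk, an adaptor of B-cell and macrophage receptors, read 972, 905 and 951 in innervated and 13205, 13906 and 15777 in denervated control on probe set 1451780_at. The mutant read 970 and 909 and then 47452, 44530 and 46447. It rose by 3.90 in control and by 5.59 in mutant from the same innervated level, an interaction of 1.70 ± 0.19 (SE; limma adjusted p = 0.00603). Gpnmb, a transmembrane glycoprotein abundant in macrophages, read 614, 634 and 871 and then 4970, 5107 and 5180 in control, against 1030 and 868 and then 16822, 22144 and 20349 in mutant. Its interaction was 1.52 ± 0.25 (SE; limma adjusted p = 0.0282). Both genes separated the denervated groups without overlap. Blnk passed in all 11 single-array omissions and Gpnmb in 5, with an adjusted p of up to 0.138 (without innervated mutant 2). With the mean of its probe sets Gpnmb stood at 0.61 (limma adjusted p = 0.729). Its other kept probe set has all group means except that of denervated mutant within the Trp control range, so the size of the 0.61 is uncertain.

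Lcn2, a secreted protein that binds iron carriers, Ripply3, a transcriptional co-repressor, and Usp46, a deubiquitinase, changed past the threshold in mutant only by their own tests, and the interaction tests that difference. Lcn2 read 455, 405 and 431 and then 693, 524 and 1624 in control, and 614 and 214 and then 8056, 9034 and 6170 in mutant. Ripply3 read 664, 623 and 475 and then 923, 702 and 622 in control, and 227 and 678 and then 4113, 4076 and 5016 in mutant. Usp46 read 2425, 2403 and 2112 and then 2710, 2818 and 2737 in control, and 2084 and 1905 and then 7505, 6856 and 5951 in mutant. In each the 3 denervated mutant arrays were the highest of the 11. Interactions were 3.39 ± 0.60 (SE) for Lcn2, 3.08 ± 0.48 (SE) for Ripply3 and 1.50 ± 0.21 (SE) for Usp46, with limma adjusted p of 0.0392, 0.0212 and 0.0141. Both innervated means of Lcn2 lie within the Trp control range, so the size of its interaction is uncertain while the gap between its denervated groups does not rest on it. Spike-in centring ended the Usp46 call (1.16, adjusted p = 0.238). Lcn2 passed in 3 of 11 single-array omissions, Ripply3 in 7 and Usp46 in 10, the last ending without innervated mutant 2 (0.0652). Ripply3 missed without innervated control 1, denervated control 2, denervated mutant 2 or denervated mutant 3, with an adjusted p of up to 0.0747. Of 12 acute-phase and metallothionein genes Lcn2 was called, and Orm2 stood at 2.22 (limma adjusted p = 0.244). Both innervated means of Orm2 lie within the Trp control range too. The list median was 0.26, -0.07 under spike-in centring, 0.19 without denervated mutant 2 and 0.78 without denervated control 2.

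Ptprc, Itgb2 and Ccl9, genes of leukocytes, had a larger genotype difference in innervated than in denervated muscle, though none of these differences passed the threshold. Ptprc, the CD45 phosphatase found on blood-derived cells, read 2669, 2725 and 3162 in innervated and 3180, 2379 and 2786 in denervated control. The mutant read 961 and 1018 and then 2814, 4422 and 2871. Denervated groups overlapped, while both innervated mutant arrays were below all other arrays. The genotype difference was 0.25 in denervated muscle but -1.51 in innervated muscle. The interaction was 1.76 ± 0.29 (SE; limma adjusted p = 0.0259). Itgb2, the shared beta subunit of leukocyte integrins, read 1161, 1015 and 1360 and then 1614, 1106 and 1425 in control, against 372 and 356 and then 1414, 2370 and 1763 in mutant. Its genotype differences were 0.40 and -1.64 (limma adjusted p = 0.563 and 0.17), and the interaction 2.04 ± 0.34 (SE; limma adjusted p = 0.0276). The innervated mutant mean of Itgb2 lies within the Trp control range, so the size of the -1.64 and of the interaction is uncertain. The chemokine gene Ccl9 had the same shape on a called probe set (1.85, limma adjusted p = 0.0267), with innervated mutant arrays of 780 and 703 beside 1552 to 2548 in innervated control. On its brightest probe set Ccl9 missed the threshold (1.64, limma adjusted p = 0.109).

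Of 33 tested macrophage and leukocyte markers 4 were called (Blnk, Ptprc, Itgb2 and Gpnmb), 30 were positive and 3 negative, and 16 had an unadjusted p under 0.05, all positive. Over all 12214 genes 32 were called (0.262%), 6286 were positive, and 532 positive and 465 negative values had such a p. The median interaction was 0.81, or 0.47 under spike-in centring. By parts, the list's median genotype difference was -0.52 in innervated and 0.24 in denervated muscle. Its summed signal ran from 86749 to 123125 in innervated control and from 64209 to 70607 in innervated mutant. It ran from 188663 to 249541 in denervated control and from 271316 to 314926 in denervated mutant, with no overlap between genotypes in either state. The called Blnk and Gpnmb are a large part of the denervated gap. Blnk read 13205 to 15777 in denervated control and 44530 to 47452 in denervated mutant, and Gpnmb 4970 to 5180 and 16822 to 22144. Denervated groups of Ptprc and Itgb2 overlapped. The sum without called genes is not given here, so the gap does not stand for the list as a whole. Summed signal of 4 granulocyte markers was 8450 to 17812 in denervated control and 23356 to 34021 in denervated mutant. S100a8 and the called Lcn2 make up most of that sum, and Ngp had an interaction of -0.44. The median of these 4 was 0.65, -0.08 without innervated mutant 1 and 1.39 without innervated mutant 2. The part of a changed leukocyte share in these interactions was not tested. Leaving out either innervated mutant array ended the calls of Ptprc and Itgb2, with adjusted p of up to 0.0986 and 0.109. Spike-in centring ended all 4 calls, with adjusted p of 0.104 for Blnk, 0.173 for Ptprc, 0.13 for Itgb2 and 0.233 for Gpnmb.

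**Figure D4:**
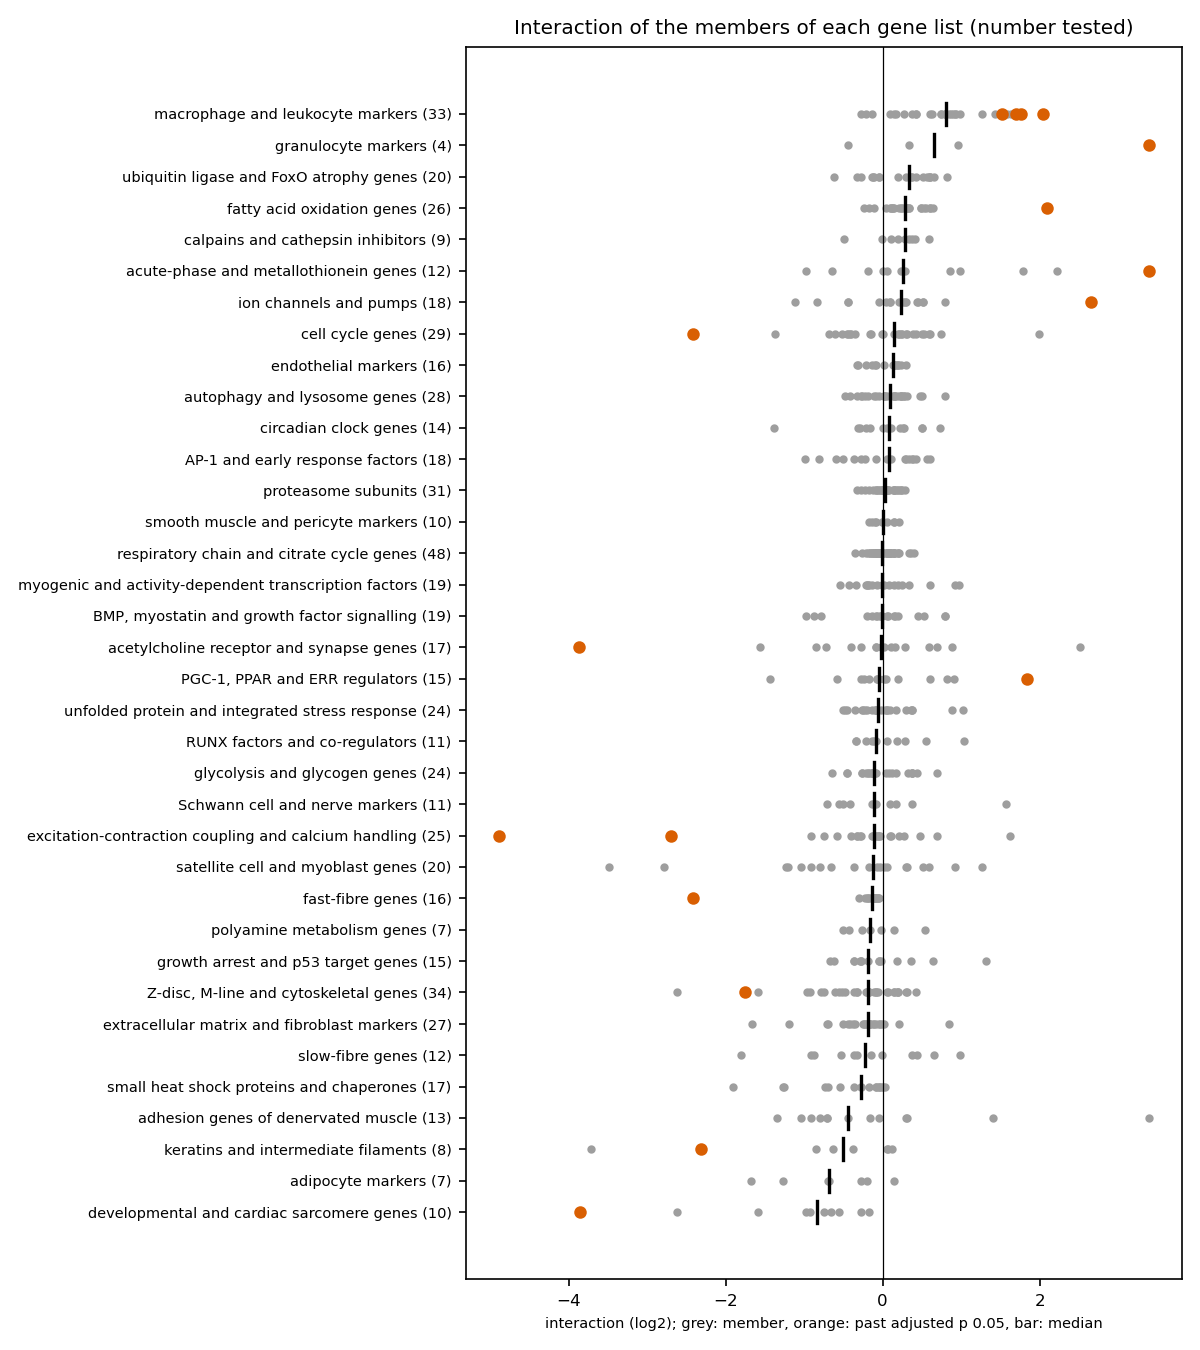
Interaction of every tested member of the gene lists (x axis, log2; one row per list), with a bar at the list median and called members in orange. The developmental and cardiac sarcomere list lies wholly below 0 with a median of -0.83, the macrophage and leukocyte list has a median of 0.81, and the proteasome and respiratory chain lists cluster about 0.

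Other lists had no member past the threshold. The 20 ubiquitin ligase and FoxO atrophy genes, which mark proteins for breakdown, had a median of 0.33, which was 0.00 in size under spike-in centring. The 31 proteasome subunits had a median of 0.03 and a range from -0.33 to 0.29. The 28 autophagy and lysosome genes had a median of 0.09 and the 24 genes of the unfolded protein and integrated stress response -0.06. Among 19 myogenic and activity-dependent transcription factors the median was -0.01, with Hdac4, a repressor of activity-dependent genes, at 0.97 (limma adjusted p = 0.128). The 17 small heat shock proteins and chaperones had 16 negative values and a median of -0.27, led in size by Hspa1b at -1.91 (limma adjusted p = 0.299). The 27 extracellular matrix and fibroblast markers had 24 negative values and a median of -0.19, or 0.04 under median scaling. Of 20 satellite cell and myoblast genes, Mymk, which fuses myoblasts, had -3.48 without passing (limma adjusted p = 0.103), and the list median was -0.12. All group means of Mymk except that of denervated control lie within the Trp control range, so the size of its value is uncertain. Endothelial, smooth muscle and Schwann cell markers had 0 calls, with medians of 0.13, 0.00 and -0.11. The 7 adipocyte markers had 0 calls and a median of -0.68, which was -1.09 without denervated mutant 1 and -0.27 without denervated control 3. Their median genotype difference was 0.86 in innervated and 0.05 in denervated muscle. The 13 adhesion genes of denervated muscle also had 0 calls, with a median of -0.44, and Itga7, a laminin receptor subunit of muscle, had -1.04 (limma adjusted p = 0.108). The 9 calpain and cathepsin inhibitor genes had a median of 0.28, the 24 glycolysis and glycogen genes -0.11, the 19 genes of BMP, myostatin and growth factor signalling -0.01 and the 14 circadian clock genes 0.08. Other scalings or the omission of 1 array turned the sign of most list medians: it held under every alternative in 6 of 36 lists. With a median standard error of 0.34, moderate interactions in these lists were often not detectable with 11 arrays.

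Where a gene had several probe sets, their signs mostly matched. The 65 called probe sets covered 47 genes, 30 of which had over 1 kept probe set. These genes had 49 further kept probe sets that were not called, and 47 of them had the sign of the called one, a direction that is only partly independent since they read the same transcripts on the same arrays. Gtpbp2 and Gpnmb were the exceptions, the second with -0.29 on its other kept probe set. That Gpnmb probe set lies within the Trp control range in all groups but denervated mutant, so its value has an uncertain size. Of the 47 genes, 15 were called only on a dimmer probe set than the representative. Among them were Car3 and Fhl1, chosen for mention after their values were seen.

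Car3, a carbonic anhydrase of slow and fat-rich tissue, was very bright on 1449434_at, where it fell by 0.63 in control and 0.83 in mutant with an interaction of -0.20. On the dim 1430584_s_at it read 795, 1608 and 3366 and then 8259, 9107 and 11457 in control, and 2135 and 2509 and then 1002, 443 and 690 in mutant. That probe set thus rose in control and fell in mutant, with an interaction of -4.29 ± 0.61 (SE; limma adjusted p = 0.0144). Fhl1, a LIM-domain protein of the sarcomere, gave -0.71 on its brightest probe set (limma adjusted p = 0.216). On 1459003_at it gave -3.26 ± 0.45 (SE; limma adjusted p = 0.0127), with a rise of 1.81 in control and a fall of 1.45 in mutant. Which transcripts the dim probe sets read was not tested.

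**Figure D5:**
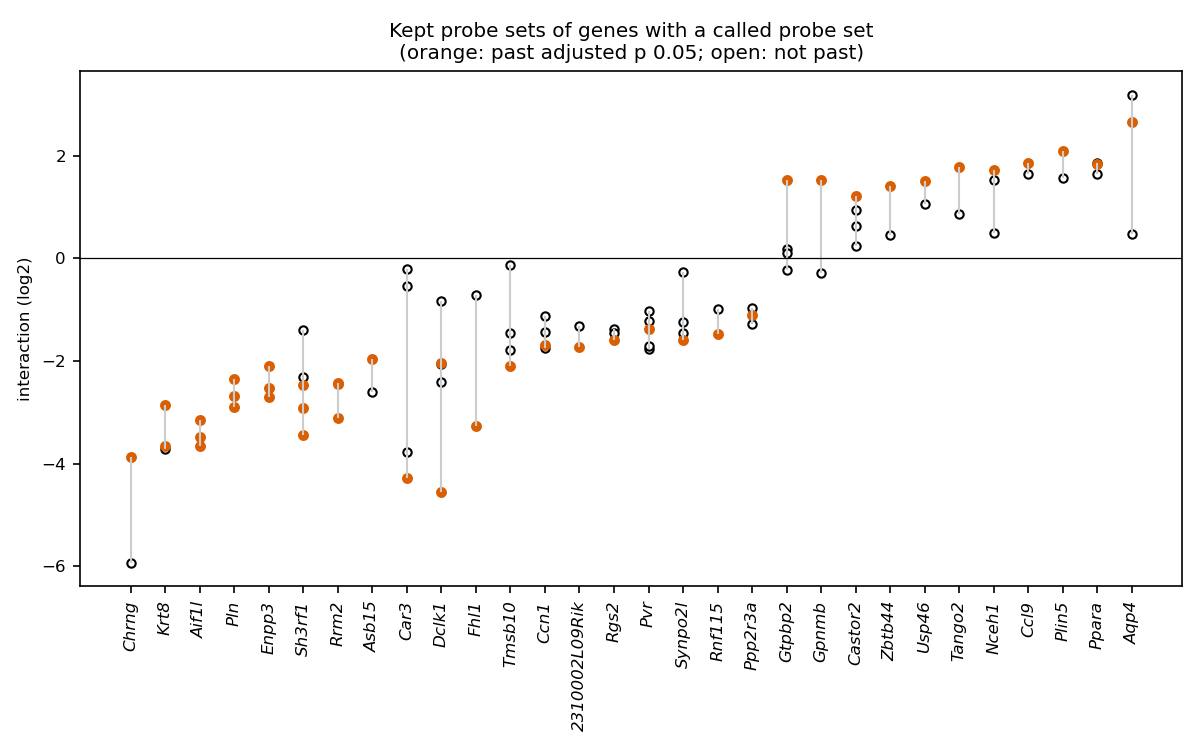
Interaction (y axis, log2) of every kept probe set of the 30 genes with a called one and over 1 kept, called probe sets in orange and others open. Most genes have all points on one side of 0, and Car3 and Fhl1 spread from near 0 to -4.29 and -3.26.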

How the data were processed

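Probe set signals of 11 arrays were used as deposited by the authors, in intensity units on a linear scale. Trimmed means (2% at each end) equal 2500 on every array. The sources used here do not name the software. Signals were analysed as log2(value + 16). Probe sets above their array's median on at least 2 of 11 arrays were kept, without the 64 controls. The supplied annotation gave 34958 probe sets exactly 1 symbol and 932 several, and 9211 were not listed. A gene was read on its kept probe set of highest mean. limma 3.58.1 in R 4.3.3 fitted a mean per group to all 11 arrays (eBayes with trend; Benjamini-Hochberg over 26170 probe sets; threshold 0.05); errors are its standard errors. A change is on the log2(value + 16) scale and understates that of dim genes.

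Named were Runx1, Cbfb, up to 15 called genes of highest and 15 of lowest interaction, and up to 2 per list by p. The interaction, the 37 lists and the rule were chosen with earlier results of these data known. Alternatives changed the pseudocount, filter, normalization, centring, variance model, block and arrays. Promoter windows came from RefSeq. Listed genes without a kept probe set were not analysed here.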

Additional observations from a re-analysis of the deposited data

Results flagged for a closer look

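The 30 named genes past the threshold are listed because their denervation change differed between the genotypes by the interaction test itself (limma, adjusted p under 0.05). In each sentence the value is the interaction in log2 units. Negative interactions were those of Rrad (-4.89), Chrng (-3.87), Myh3 (-3.86), Sh3rf1 (-3.44), Aif1l (-3.16), Enpp3 (-2.71), Pln (-2.69), Rrm2 (-2.42), Myh2 (-2.41), Krt18 (-2.31), Dclk1 (-2.03), Asb15 (-1.97), Lmod3 (-1.75), Rgs2 (-1.60) and Synpo2l (-1.59). Positive interactions were those of Lcn2 (3.39), Ripply3 (3.08), Plet1os (2.73), Aqp4 (2.65), Plin5 (2.09), Itgb2 (2.04), Plin4 (1.86), Ppara (1.84), Ptprc (1.76), Blnk (1.70), Xdh (1.57), Plcd4 (1.56), Gpnmb (1.52), Usp46 (1.50) and Sel1l3 (1.25).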

How the results depend on the processing

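The 30 named interactions kept their sign under every one of 24 alternatives run for each. Aif1l, Chrng, Myh3 and Rrm2 also stayed past the threshold in all 24, and Aif1l ran from -3.50 to -2.94. The count of 65 probe sets became 10 without the variance trend, 104 with array weights and 110 with a replicate block of number within genotype. It was 45 with a replicate block of number shared by all groups, and with that block 8 of the 30 calls ended (Rrad, Myh2, Lcn2, Itgb2, Ptprc, Plcd4, Gpnmb and Sel1l3). The labels do not say that equal numbers pair samples: deviations of equal-numbered arrays correlated at 0.11, 0.22 and 0.30 in control and at 0.03 and 0.05 in mutant. Leaving out single arrays gave 16 to 108 probe sets. Spike-in centring ended 12 of the 15 positive calls. Without the variance trend 24 of the 30 calls ended, and with the mean of a gene's kept probe sets those of Dclk1, Asb15, Synpo2l, Aqp4 and Gpnmb. The causes of these changes were not tested. Signals within the Trp control range limit the size of change for the dimmest genes.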
